A study of Mus musculus with 18 samples.

Results

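The genes described here are 8 members of the enzyme system that builds and removes poly(ADP-ribose) (PAR), taken by their RefSeq transcript identifiers, with no threshold on their values. They are the writers Parp1 (NM_007415), Parp2 (NM_009632), Parp3 (NM_145619), Tnks (NM_175091) and Tnks2 (NM_001163635), and the erasers Parg (NM_011960), Adprhl2 (NM_133883) and Macrod1 (NM_134147). All 8 were present among the 26823 transcript rows of the count files, and none was absent. Their levels were read in 18 individual mouse 2-cell embryos of the 129SVE strain, each sequenced on its own after amplification of its RNA. Of these embryos, 9 had wild-type (WT) fathers and 9 had Parg(110)-/- fathers, with 3 fathers of each genotype and 3 embryos per father. The WT fathers are numbered 1 to 3 and the Parg(110)-/- fathers 6 to 8, and an embryo is named by its father and its own number, as 6-3.

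The genotype in the labels is that of the father. The study's methods give natural matings with wild-type 129SVE females, so an embryo of a Parg(110)-/- father carried 1 disrupted Parg allele from its father and 1 intact allele from its mother. These embryos are called Parg(110) embryos below. Parg(110)-/- is a hypomorphic disruption that removes the longest isoform of the enzyme and leaves shorter ones, and a single count per transcript cannot show which part of Parg the reads came from. The Parg count is therefore no direct check of the genotype labels. Nothing in the labels names a mother, litter or sequencing batch, so mother, litter and father cannot be told apart.

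PAR is a chain of ADP-ribose units that PARP enzymes assemble on proteins from NAD, often within moments of a DNA break. PARG cuts the chain between its units, while other hydrolases take off the last unit or the link to serine or to acidic residues. In the male germ line PAR metabolism takes part in the exchange of histones for protamines as spermatids condense. In the 2-cell embryo, mRNA laid down by the egg is being degraded while the embryo's own genome begins to be transcribed. A transcript level here can therefore combine a maternal store with new transcription from both parental alleles.

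The embryos had 2852858 to 13355161 counts each, with a median of 7594021 in the WT group and 7191377 in the Parg(110) group. Levels are given as CPM, the count divided by the file's total and scaled to a library of 1000000 counts. A listed count of 0 allowed a level of up to 0.225 to 1.05 CPM, depending on the depth of the embryo, for counting error only. Transcripts of the oocyte and cleavage embryo (8 genes, among them Zp3, Gdf9 and Dppa3) summed to 811 to 1545.8 CPM in the WT embryos and 732 to 2140.6 CPM in the Parg(110) embryos, with 7 of 8 counted in every embryo. Transcripts of 2-cell genome activation (8 genes, among them Zscan4c and Zfp352) summed to 28.2 to 187 CPM and 28.9 to 220 CPM, with only 3 of 8 counted in every embryo. Of 8 cumulus and granulosa cell markers 6 were at 0 in every embryo and the list summed to at most 10.9 CPM in the WT and 0.594 CPM in the Parg(110) embryos. Of 7 sperm and spermatid markers 4 were at 0 in every embryo and the sum reached at most 3.44 and 4.36 CPM.

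The promoters of the members counted in every embryo are shown first, since Parg starts head to head with a neighbouring gene. Of the 8 genes, 7 had an entry in the RefSeq promoter set on GRCm38.p6 (Tnks did not). The runs below are the plus strand, 5′ to 3′, and end at the base before the annotated start. For Parg the run is the whole gap of 57 bases between its start and that of Timm23, a mitochondrial import gene on the other strand (chr14:32201892-32201948). For the others it is the last 120 bases before the start (Parp1 at chr1:180568771-180568890, Parp2 at chr14:50807796-50807915 and Tnks2 at chr19:36834112-36834231). Capitals mark matches on either strand to CCGGAAGT (ETS), GGGCGG (GC box) and TGCGCA (NRF1 core).
Parg: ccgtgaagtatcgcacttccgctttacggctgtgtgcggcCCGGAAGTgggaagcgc
Parp1: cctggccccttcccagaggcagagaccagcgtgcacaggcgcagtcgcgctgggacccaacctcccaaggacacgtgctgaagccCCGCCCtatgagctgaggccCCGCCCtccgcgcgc
Parp2: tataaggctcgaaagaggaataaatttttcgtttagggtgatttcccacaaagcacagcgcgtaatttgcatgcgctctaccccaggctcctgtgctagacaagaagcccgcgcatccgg
Tnks2: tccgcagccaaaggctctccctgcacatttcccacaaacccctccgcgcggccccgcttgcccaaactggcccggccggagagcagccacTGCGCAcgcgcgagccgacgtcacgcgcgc

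All these promoters were rich in CpG. Over the 250 bases before the start, the observed over expected CpG ratio was 0.96 for Parg, 0.68 for Parp1, 0.84 for Parp2 and 1.05 for Tnks2, against a median of 0.37 over 32851 promoters of the same length. The ETS sequence in the Parg gap stood in 2.88% of all promoters, the NRF1 core of Tnks2 in 6.43% and the GC box in 32.7%. A search for TATAAA (12.4% of promoters), CCAAT (33.8%) and TGACGTCA (1.55%) found none of these in the 250 bases before any of these 4 starts. These matches describe letters only.

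**Figure D1:**
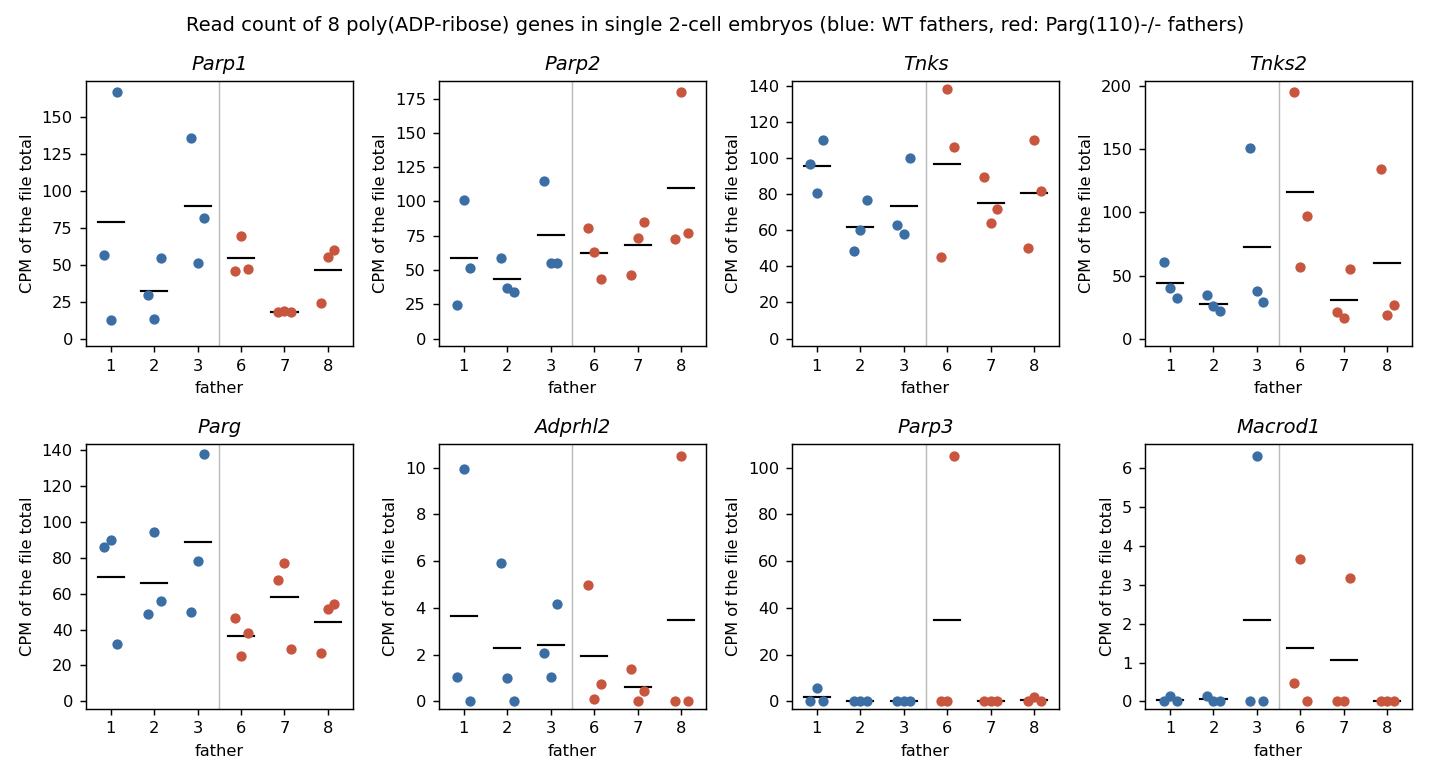
Level of each of the 8 genes in every embryo, as CPM of the file total on a linear axis that differs between panels, with embryos grouped by father. Points are embryos (blue for WT fathers, red for Parg(110)-/- fathers) and bars are the means of 3 embryos. The Parg(110) embryos lie at 25.2 to 77.3 CPM for Parg, all below the WT median of 78.4 CPM, and Parp3 is near 0 in all embryos but 6-3.

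The first question was whether embryos of Parg(110)-/- fathers differed from WT embryos in the transcripts of this system, in which the father's mutation lies. None of the 8 genes passed the threshold of an adjusted p below 0.1 in edgeR's quasi-likelihood test, adjusted by the Benjamini-Hochberg method over the 15333 rows tested, where 0.0% of all rows passed. At an unadjusted p below 0.05, 1 of the 8 (Parp3, higher in Parg(110) embryos) passed, against 5.8% of all rows in either direction and 2.48% with the higher level in Parg(110) embryos. With DESeq2's Wald test 38 of all rows passed the threshold. It gave Parp3 and Macrod1 no adjusted p (unadjusted p 0.297 and 0.16 by the Wald test), and none of the other members passed. The ranges of the 2 groups overlapped for all 8 genes, and 0.00652% of all rows had ranges that did not. The fitted change was upward for 5 genes and downward for 3. Their median log2 fold change was 0.15, beside -0.016 over all rows tested.

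Parg, on chromosome 14 (33015135 to 33110736, plus strand, mm9), codes for the main enzyme that degrades PAR. The WT embryos ranged from 32.0 to 138 CPM with a median of 78.4 CPM, and the Parg(110) embryos from 25.2 to 77.3 CPM with a median of 46.7 CPM. Every Parg(110) embryo lay below the WT median, which was the case for 1.94% of all rows. The groups still overlapped, since 5 WT embryos lay above the highest Parg(110) embryo and the other 4 within its range. The means were 74.7 ± 32.1 CPM in the WT and 46.4 ± 18.3 CPM in the Parg(110) embryos (SD, n = 9 each).

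The fitted log2 fold change of Parg was -0.67 (SE 0.34, 95% interval -1.37 to 0.03), which is a ratio of 0.627 (0.386 to 1.02). Its unadjusted p was 0.0592 and its adjusted p was 0.872 in edgeR's quasi-likelihood test. As the gene the mutation targets, Parg was also tested alone. An exact two-sided permutation of the embryos over all 48620 assignments gave a difference of -0.66 in mean log2(CPM + 1), with p = 0.0354 before and 0.885 after Benjamini-Hochberg adjustment over all rows. By the same test 5.43% of all rows had an unadjusted p below 0.05, and 3.91% did so with the lower level in Parg(110) embryos. Both this test and edgeR's fit above treat the embryos of a father as independent. With counts summed per father, edgeR's quasi-likelihood test gave Parg a log2 fold change of -0.6 (SE 0.37, unadjusted p = 0.134). Over the means of the 6 fathers the exact p was 0.1, the smallest this design allows.

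The fathers' means of Parg did not overlap. They were 66.3 to 88.7 CPM for the WT and 36.7 to 58.1 CPM for the Parg(110)-/- fathers, an order found in 5.87% of all rows. The single-gene p rose to 0.05 or above when any of fathers 2, 3, 6 and 8 was left out, with the highest value, 0.138, without father 6. It also did so without any of the embryos 1-1, 1-2, 2-2, 3-2, 3-3, 6-2, 6-3, 7-3 and 8-1. In all 24 of these fits the difference stayed negative, between -0.81 and -0.52. Timm23, which starts on the other strand beside Parg, was at 0.674 to 9.48 CPM in the WT and 0 to 29.9 CPM in the Parg(110) embryos, with a log2 fold change of -0.01 (SE 0.96, edgeR's adjusted p = 1.0). The median of Timm23 was 5.31 CPM in the WT and 1.71 CPM in the Parg(110) embryos, lower in the latter as for Parg. Its highest value, 29.9 CPM, was that of embryo 8-3. Spearman's rho of Timm23 with Parg over all embryos was 0.41, and whether the neighbours vary together was not tested. The mm9 annotation also places the pseudogene Gm7707 inside Parg, and only uniquely mapping reads were counted.

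**Figure D2:**
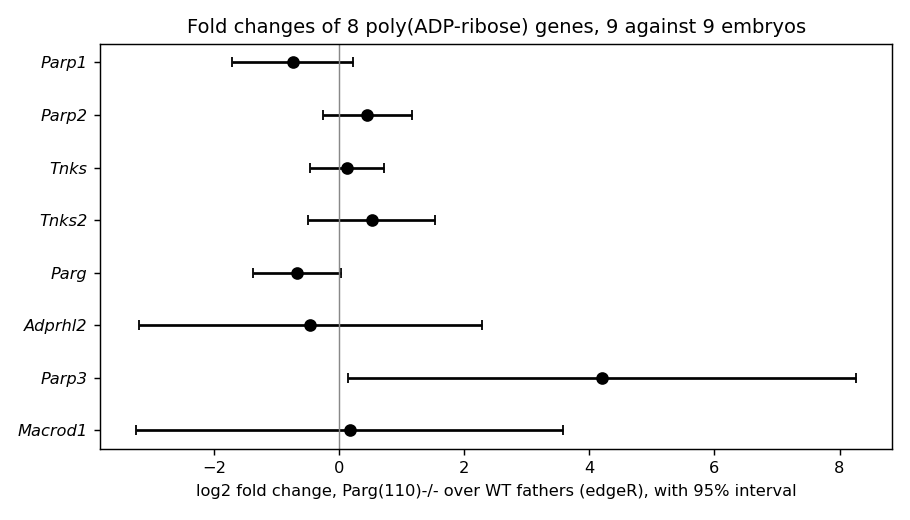
Log2 fold change of Parg(110) over WT embryos for the 8 genes, from edgeR's quasi-likelihood test, with 95% intervals (9 against 9 embryos). The interval crosses 0 for all genes but Parp3, whose value of 4.21 rests on embryo 6-3, and it is narrowest for Tnks.

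The other 2 erasers were rare transcripts. ADP-ribosylserine hydrolase, the product of Adprhl2 (also called Arh3; chromosome 4, 125993291 to 125998947, minus strand), releases ADP-ribose from serine. Adprhl2 was counted in 7 of 9 WT embryos, at 0 to 9.93 CPM, and in 6 of 9 Parg(110) embryos, at 0 to 10.5 CPM. The means of 2.8 ± 3.32 and 2.01 ± 3.54 CPM (SD, n = 9) differed by less than the spread between embryos, with a log2 fold change of -0.46 (SE 1.33, edgeR's adjusted p = 0.998). Macrod1 (chromosome 19, 7131258 to 7272551, plus strand) codes for a hydrolase that removes ADP-ribose from acidic residues. It was counted in only 3 of 9 embryos of each group, up to 6.32 CPM in WT and 3.66 CPM in Parg(110) embryos. Its log2 fold change was 0.17 (SE 1.65, edgeR's adjusted p = 1.0; 4.17 by DESeq2), with an interval of -3.24 to 3.58.

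Parp1, which makes most PAR after DNA damage, was counted in every embryo and was the least even of the common writers in the WT group after Tnks2 (chromosome 1, 182499086 to 182531384, plus strand). Its WT embryos ranged from 12.9 to 167 CPM with a median of 55.0 CPM, and the Parg(110) embryos from 17.8 to 69.9 CPM with a median of 46.0 CPM. Both groups reached down to similar levels, and only the 3 highest WT embryos (1-3, 3-1 and 3-3) lay above the Parg(110) range. The log2 fold change was -0.74 (SE 0.47, interval -1.71 to 0.23, edgeR's adjusted p = 0.918), and it was -0.32 by limma-voom with the father as random effect. The 3 embryos of father 7 lay unusually close together, at 18.2 ± 0.393 CPM (SD, n = 3), while those of father 1 spread over 79.1 ± 79.6 CPM.

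Parp2, the other DNA-dependent PARP, was higher in mean in the Parg(110) embryos, the opposite direction to Parp1 (chromosome 14, 51427621 to 51440975, plus strand). The WT embryos ranged from 24.6 to 115 CPM with a median of 55.2 CPM, and the Parg(110) embryos from 43.5 to 180 CPM with a median of 73.2 CPM. The lowest 3 embryos (1-1, 2-2 and 2-3) were WT and the highest (8-2) was a Parg(110) embryo. The log2 fold change of 0.45 (SE 0.34, interval -0.26 to 1.16) did not pass the test (edgeR's adjusted p = 0.947), and it was 0.17 without father 8. Rpph1, the RNA of ribonuclease P that RefSeq places beside Parp2, did not follow it over the 18 embryos (Spearman rho -0.09).

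Parp3, a PARP that acts at double-strand breaks (chromosome 9, 106372653 to 106379280, minus strand), was listed at 0 in 15 of 18 embryos. Embryo 6-3 had 1142 counts (105 CPM), the WT embryo 1-2 had 40 counts (5.59 CPM) and embryo 8-2 had 11 counts (1.92 CPM). The group fold change of 4.21 on the log2 scale (SE 1.97, edgeR's adjusted p = 0.839) therefore rested on 1 embryo. It was 1.07 by limma-voom, and without any of these 3 or their fathers the row failed the filter and had no value. Rrp9, which overlaps Parp3 on the other strand, was counted in every embryo at 24.2 to 233 CPM, also where Parp3 was at 0. Whether counting used the strand is not given in the sources used here.

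The tankyrases, which modify axin and telomere proteins and differ from the DNA-dependent PARPs in having ankyrin repeats, were counted in every embryo. Tnks (chromosome 8, 35892233 to 36028744, minus strand) was the most even of the 8 genes. Its WT embryos ranged from 48.3 to 110 CPM with a median of 76.8 CPM, and the Parg(110) embryos from 45.4 to 138 CPM with a median of 81.5 CPM. The log2 fold change was 0.13 (SE 0.29, edgeR's adjusted p = 0.991), and its interval of -0.46 to 0.72 was the narrowest of the 8.

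Tnks2 (chromosome 19, 36908722 to 36967967, plus strand) was the opposite, with a few embryos far above the rest in both groups. The WT embryos ranged from 22.1 to 151 CPM with a median of 34.4 CPM, and the Parg(110) embryos from 16.2 to 195 CPM with a median of 54.9 CPM. Embryos 3-1, 6-1 and 8-1, each from another father, were the 3 highest. The log2 fold change was 0.52 (SE 0.5, interval -0.5 to 1.54, edgeR's adjusted p = 0.967), and it turned to -0.12 without father 6.

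The second question was whether embryos of one father resembled each other more than embryos of other fathers of the same genotype. Over all rows tested, deviations from the genotype mean had a median correlation of -0.104 between embryos of one father (18 pairs). Between embryos of other fathers of the same genotype it was -0.135 (54 pairs). Subtracting the genotype mean by itself pushes correlations within a genotype below 0, so the negative sign shows no opposition between embryos. The 2 ranges overlapped (-0.207 to 0.059 and -0.228 to -0.034), and the difference was not tested. None of the 8 genes passed edgeR's quasi-likelihood F test between fathers within genotype at an adjusted p below 0.1, where 0.0% of all rows passed. With no filter on low counts, 702 rows passed, Parp3 among them (adjusted p = 0.000314 by edgeR). At an unadjusted p below 0.05, 1 of the 8 passed (Parp3, adjusted p = 0.7 by edgeR), against 6.76% of all rows. Each embryo with Parp3 counts (1-2, 6-3 and 8-2) had siblings at 0, so these Parp3 values show no likeness within a father. With DESeq2's likelihood ratio test 140 rows passed. It gave Adprhl2, Parp3 and Macrod1 no adjusted p, and none of the other members passed. Tnks2 had an adjusted p of 0.713 by edgeR. Its means were 44.3 ± 14.5, 27.3 ± 6.33 and 72.5 ± 68.1 CPM for the WT fathers 1, 2 and 3, and 116 ± 70.9, 30.8 ± 21.0 and 59.5 ± 64.4 CPM for the Parg(110)-/- fathers 6, 7 and 8 (SD, n = 3 each). For Parg, whose fathers' means separated by genotype, the test between fathers within genotype gave an adjusted p of 0.999 by edgeR.

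The spread between embryos was smaller for the common members of this system than for the median row. The coefficient of variation of Parg was 42.2% in WT and 41.2% in Parg(110) embryos, that of Tnks 28.3% and 36.4%, and that of Parp2 50.3% and 49.9%. The median row had 95.2% and 107%, but the members were not matched to rows of like level, and rows of low counts vary more. For Tnks2 it was 82.1% and 90.1%, and for the rare members it was over 100% in both groups. With at least 10 counts in every embryo, 5 of the 8 genes (Parg, Parp1, Parp2, Tnks and Tnks2) belonged to the 33.4% of tested rows that had this.

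**Figure D3:**
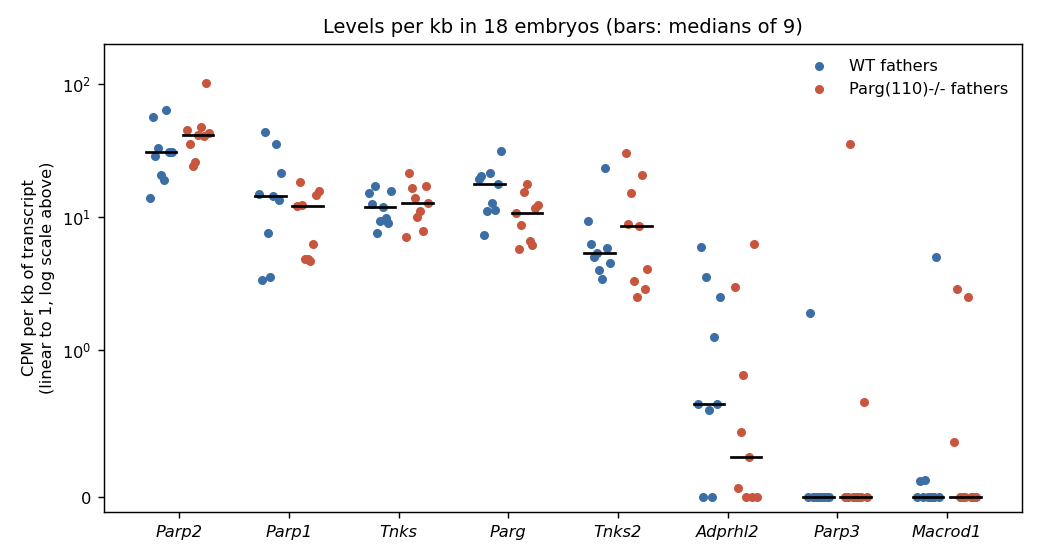
Level per kb of transcript in the 18 embryos, on an axis that is linear up to 1 and logarithmic above, with bars at the medians of 9 embryos. Parp2 has the highest medians, those of Parp1, Tnks and Parg lie between 10.6 and 17.8 CPM per kb, and Adprhl2, Parp3 and Macrod1 lie at or near 0.

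Levels of different genes were compared per kb of the longest coding transcript in the mm9 annotation. Parp2 was first, with a median of 34.0 CPM per kb over the 18 embryos (13.8 to 101), and it exceeded Parp1 in 16 of 18 embryos. Parp1, Tnks and Parg followed, in an order that was not the same in the 2 groups. In WT embryos the median was 17.8 CPM per kb for Parg, 14.3 for Parp1 and 11.9 for Tnks, with Parg above Tnks in 8 and Parp1 above Tnks in 6 of 9. In Parg(110) embryos it was 10.6 CPM per kb for Parg, 12 for Parp1 and 12.6 for Tnks, with Tnks above Parg in 6 and Parp1 above Tnks in 2 of 9. The ranges of the 3 genes overlapped in both groups, and whether their order differed between the groups was not tested. Tnks2 had medians of 5.3 CPM per kb in WT and 8.47 in Parg(110) embryos, and Parg exceeded it in 8 of 9 WT and 4 of 9 Parg(110) embryos. Over all 18 embryos Adprhl2 had 0.609 CPM per kb, below Tnks2 in 17 of 18 embryos, and the medians of Parp3 and Macrod1 were 0. Amplification can favour some transcripts, so these levels are approximate.

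Ratios within an embryo do not depend on the scaling between libraries. The log2 ratio of Parg to Parp2 per kb ran from -2.51 to 0.5 in WT embryos with a median of -0.8, and from -3.11 to -0.76 in Parg(110) embryos with a median of -2.1. Parg was above Parp2 in 3 of 9 WT and 0 of 9 Parg(110) embryos. Parp2 was above Parp1 in 7 of 9 WT and in all 9 Parg(110) embryos, with median log2 ratios of 0.86 and 2.44. The ranges of both ratios overlapped between the groups, and these are descriptions of values already given, with no test of their own.

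The balance of Tnks2 to Tnks overlapped widely between the groups. Its median log2 ratio per kb was -1.01 in WT and -1.28 in Parg(110) embryos, and Tnks2 was the higher of the pair in 1 WT and 2 Parg(110) embryos. Between members, Spearman's rho over the 18 embryos ran from -0.45 (Parg with Tnks2) to 0.45 (Parp1 with Tnks), as a description over libraries of unequal depth.

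The rows whose pattern over the 18 embryos was most like that of a member were found by Spearman's rho on TMM-normalised log2 CPM among the rows tested, as the highest value among all of them and with no test. For Parg they were Phkb (rho 0.79), a subunit of phosphorylase kinase, Taf11 (0.76), a subunit of the transcription factor TFIID, and Serhl (0.75). For Parp1 it was Ppp1r3b (0.82), for Parp2 Srl (0.85), for Tnks Dennd5a (0.84) and for Tnks2 Polr2h (0.88), a subunit shared by the RNA polymerases. For the rare members the nearest rows were Cpeb1 for Adprhl2 (0.82), Rdh9 for Macrod1 (0.86) and Apoa5 for Parp3 (0.84). For Macrod1 and Parp3 most embryos tie at 0.

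**Figure D4:**
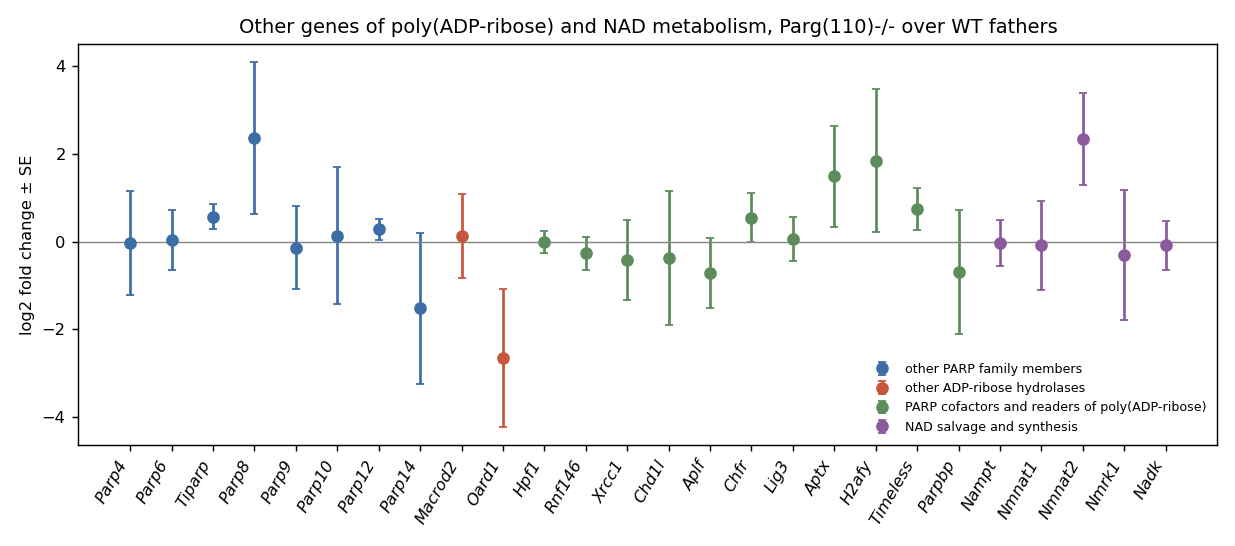
Log2 fold change of Parg(110) over WT embryos with its standard error (edgeR) for the tested genes of 4 lists: other PARP family members, other ADP-ribose hydrolases, PARP cofactors and readers of PAR, and NAD genes. None passed the threshold. Common transcripts such as Parp12 and Hpf1 have short bars near 0, and rare ones such as Oard1 and Parp8 have long bars.

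The rest of the pathway was read from 4 lists, and no gene of any list passed the threshold. Of 10 other PARP family members 8 could be tested, 5 with a fitted change upward and 3 downward, and their median log2 fold change was 0.08. Tiparp, a mono-ADP-ribosyltransferase induced by the aryl hydrocarbon receptor, had the smallest p upward, with 89.9 ± 32.4 CPM in WT and 133 ± 50.6 CPM in Parg(110) embryos (log2 fold change 0.57, SE 0.29, edgeR's adjusted p = 0.872). In the other direction it was Parp14, at -1.52 (SE 1.72, adjusted p = 0.971 by edgeR). Parp12 was an abundant member of the family, at 238 CPM in WT and 286 CPM in Parg(110) embryos.

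Of 4 other ADP-ribose hydrolases 2 could be tested. Oard1, which removes terminal ADP-ribose from glutamate, was at 3.44 CPM in WT and 0.541 CPM in Parg(110) embryos and did not pass the test (log2 fold change -2.66, SE 1.57, edgeR's adjusted p = 0.908), and Macrod2 had a log2 fold change of 0.13. Of 12 cofactors and readers 11 could be tested, 5 upward and 6 downward with a median of -0.02. The smallest p upward was that of Timeless (0.75, SE 0.48, edgeR's adjusted p = 0.918) and downward that of Aplf (-0.72, SE 0.8, adjusted p = 0.971 by edgeR). Hpf1, the cofactor that directs PARP1 and PARP2 to serine, was at 110 and 107 CPM.

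NAD, the substrate of every PARP, is made by salvage and synthesis enzymes of which 5 of 10 could be tested, 1 upward and 4 downward. Nmnat2, which forms NAD from its mononucleotide, was the 1 gene of the 4 lists with an unadjusted p below 0.05, which 5.8% of all rows had. It was at 1.24 ± 1.39 CPM in WT and 6.31 ± 5.39 CPM in Parg(110) embryos (SD, n = 9), with a log2 fold change of 2.34 (SE 1.04, edgeR's adjusted p = 0.809). In the other direction Nmrk1 had the smallest p (log2 fold change -0.31, SE 1.48, edgeR's adjusted p = 1.0). Qprt was at 0 in every embryo, and Nnt had no row.

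**Figure D5:**
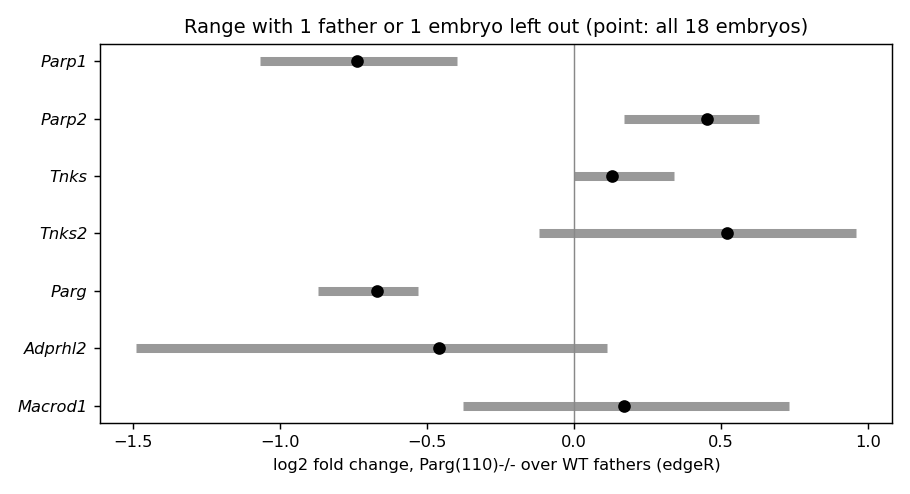
Log2 fold change of Parg(110) over WT embryos when each father or each embryo was left out in turn (grey bar, lowest to highest of up to 24 fits by edgeR) and with all 18 embryos (black point). The bars of Parg, Parp1 and Parp2 stay on 1 side of 0, that of Tnks reaches it, and those of Tnks2, Adprhl2 and Macrod1 cross it. Parp3 is not drawn. Parp3 and Macrod1 had a value in only 18 fits each. Macrod1 had none without embryo 3-2, 6-2 or 7-3 or their fathers, so its bar leaves out these fits.

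The fitted direction was steadier for some members than for others. Leaving out each father or embryo in turn kept Parg between -0.87 and -0.53, Parp1 between -1.07 and -0.4 and Parp2 between 0.17 and 0.63 on the log2 scale. It moved Tnks between 0.00 (just below 0 before rounding, without father 2) and 0.34, Tnks2 between -0.12 and 0.96, Adprhl2 between -1.49 and 0.11 and Macrod1 between -0.38 and 0.73. Macrod1 failed the filter and had no value without embryo 3-2, 6-2 or 7-3 or their fathers. In none of the 257 alternative values of the 8 genes did an adjusted p fall below 0.172. DESeq2's Wald test gave Parp3 and Macrod1 no adjusted p.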

How the data were processed

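The 8 genes and the pathway and marker lists were chosen with earlier results of these data known. The named genes were the 8 members, the gene of smallest p in each direction of each pathway list where none passed, and the rows of highest Spearman's rho with each member (3 for Parg, 1 for the others). Parp12, Hpf1, Qprt and Nnt were named after their values were seen. The authors amplified the RNA of single embryos with the WT-Ovation One-Direct kit, mapped Illumina reads to mm9 with RUM (1 mismatch allowed, unique hits only) and deposited raw read counts per RefSeq transcript, tested in the study with DESeq 1.10.0. The counting tool and strand setting are not given in the sources used here. Amplification from 1 embryo adds spread and can lose rare transcripts.

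Groups came from the sample labels, and symbols were matched by accession for 26136 of 26823 rows. Counts were normalised by TMM and tested with edgeR 4.0.16 (quasi-likelihood test, R 4.3.3) over the 15333 rows that reached 10 counts in 3 or more embryos. P-values were adjusted by the Benjamini-Hochberg method, and calls made below 0.1. The standard error is the log2 fold change divided by the root of F. CPM in the text used the file total, and log2 values a pseudocount of 1. Alternatives used DESeq2 1.42.0, limma 3.58.1, other filters and scalings, other pseudocounts, counts summed per father, and left-out fathers or embryos. Scripts were tested on simulated data. No source says whether embryos of a father came from 1 litter. P-values over embryos set a difference against the spread between these samples, which may be technical. The main edgeR fit between genotypes, with its standard errors and intervals, took the embryos of a father as independent. Totals were 2852858 to 13355161 counts. No pair of embryos agreed within sampling noise. Gene positions are from GENCODE vM1 on mm9, and promoter sequences from RefSeq on GRCm38.p6.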

Additional observations from a re-analysis of the deposited data

Results flagged for a closer look

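Within each group of 9 embryos, the highest or lowest value was compared with its nearest neighbour by Dixon's ratio of gap to range, with a critical value of 0.493. Of the 16 groups examined 6 held an embryo beyond it. The share of such groups over all rows was not computed, so this count is no trait of these genes. The critical value is set for about 1 in 20 groups of normally distributed values, which CPM of single embryos need not be. Where most embryos are at 0, as for Parp3 and Macrod1, a single counted embryo can by itself give a ratio near 1. Embryo 8-2 stood apart for Parp2, at 180 CPM with the next embryo at 85.2 CPM, and for Adprhl2, at 10.5 CPM with the next at 4.96 CPM. Embryo 6-3 stood apart for Parp3, at 105 CPM with the next at 1.92 CPM. Among WT embryos, 1-2 stood apart for Parp3 (5.59 CPM, all others at 0), 3-1 for Tnks2 (151 CPM, the next at 60.4 CPM) and 3-2 for Macrod1 (6.32 CPM, the next at 0.15 CPM). No embryo stood apart in this way for Parg, Parp1 or Tnks. Why single embryos stood apart was not tested.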

How the results depend on the processing

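Of 257 log2 fold changes of the 8 genes under other settings, 249 kept the direction, 8 turned and none passed the threshold. Parp3 and Macrod1 had no adjusted p from DESeq2 and could not pass there. Turned values were -0.12 for Tnks2 without father 6, 0.11 for Adprhl2 without embryo 1-2, 0.00 (below 0 before rounding) for Tnks without father 2, and for Macrod1 -0.12 with counts summed per father, -0.36 and -0.38 without fathers 1 and 2, -0.01 without embryo 1-3 and 0.00 (below 0 before rounding) without embryo 3-3. With a father or embryo left out, the log2 fold change reached 0.34 for Tnks, 0.96 for Tnks2, 0.73 for Macrod1 and -1.49 for Adprhl2. Macrod1 had no value in the fits without embryo 3-2, 6-2 or 7-3 or their fathers. Parp3 had none without embryo 1-2, 6-3 or 8-2 or their fathers. Embryo 6-3, on which its fold change rested, was thus in every Parp3 fit, and its direction without that embryo is not known. Larger moves came from other models: Macrod1 went from 0.17 to 4.17 with DESeq2 and 1.73 with the replicate block, Parp3 from 4.21 to 1.07 with limma-voom and 1.97 with the block, Adprhl2 from -0.46 to -1.34 and Parp1 from -0.74 to -0.32 with limma-voom. The single-gene difference of Parg lay between -0.81 and -0.52 with a father or embryo left out, with the exact permutation p at or above 0.05 in 13 of 24 fits, and over father means it was -0.66 (exact permutation p = 0.1). Over all rows, the count passing between genotypes was 38 by the Wald test of DESeq2, and with a father or embryo left out it was 0 to 5 (5 without father 6, 2 without embryo 6-1 and 2 without embryo 7-1). Between fathers it was 702 with no filter, where Parp3 had an adjusted p of 0.000314 by edgeR, and 140 with DESeq2's likelihood ratio test. Embryos that share a number were not paired by it, as the deviations of same-numbered embryos of the other genotype had a median correlation of 0.006, against -0.001 for other numbers. With the embryo number as replicate block, 0 rows passed in either comparison. Adprhl2, Parp3 and Macrod1 had 0 counts in several embryos and no value when 10 counts in 9 embryos were required. The cause of these changes was not tested.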
